A study of Homo sapiens with 4 samples.

Results

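The F12 tumor cells of the human hepatocellular carcinoma line HuH7 were compared with the parental HuH7 cells by setting the 1 F12 expression array against each of the 2 parental (F0) arrays separately. A gene was taken as a member when F12 lay above both F0 arrays with a log2 signal of at least 6 on F12, or below both F0 arrays where these each had a log2 signal of at least 6. Of 19775 genes measured, 5402 met this rule, 3125 above both F0 arrays (15.8%) and 2277 below both (11.5%). The series has 4 arrays in all. F0 is parental HuH7, with 2 arrays named F0 (1) and F0 (2), and no treatment is given for it. F6 and F12, with 1 array each, are labelled drug-resistant cells derived from the same line. They came from HuH7 tumors carried in immunodeficient NOD/SCID mice that received intraperitoneal injections of JNJ-28841072, which inhibits aurora kinases and the receptors for vascular endothelial growth factor. Tumors that had become resistant were cut up and engrafted into further mice, 6 times for F6 and 12 times for F12. The phenotype label of F6 and F12 names resistance to sorafenib, another kinase inhibitor, and which drug is meant is not settled by the sources used here. No array of untreated tumors regrafted as often was part of the comparison, so the treatment and the regrafting cannot be told apart. RNA was extracted from tissue specimens, and whether the F0 pair are separate cultures, separate tumors or neither is not given in the labels.

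HuH7 is a well differentiated liver cancer line that makes many hepatocyte proteins. Vascular endothelial growth factor receptors sit mainly on the endothelial cells of tumor vessels and pass on signals for vessel growth, while aurora kinases act inside dividing cells, where AURKA works at spindle poles and AURKB at the chromosomal passenger complex that corrects attachments of chromosomes to the spindle. Liver cancer cells commonly draw on glycolysis for energy, on fibroblast growth factor 19 and its receptor FGFR4 for growth signals, and on the endoplasmic reticulum for a large output of secreted protein.

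All values below are log2 signals as deposited, so a difference of 1 is 2-fold. Signals under 6 were taken as near background, since the medians of the 4 arrays over probesets lay between 4.67 and 4.85, and a difference that reaches below 6 is only a bound. The F0 (1) array stood apart. Its Pearson r across genes was 0.687 with F0 (2) and 0.675 with F12, whereas F12 and F0 (2) had an r of 0.976 (genes are not independent replicates). F6 had an r of 0.917 with F0 (1), 0.873 with F0 (2) and 0.869 with F12, so that F0 (1) lay nearest to F6 and F0 (2) nearest to F12. The labels name no batch, and any part of a batch or of exchanged arrays in the F12 differences was not tested. RNA45SN5, the precursor of ribosomal RNA, read 12.96 on F0 (1), 6.87 on F0 (2), 11.92 on F6 and 6.54 on F12. Over all genes the median of F12 minus F0 (1) was -0.54 and that of F12 minus F0 (2) was 0.03, which became -0.36 and 0.08 after the arrays were centred on genes with signal on all of them. Each result is therefore given against both F0 arrays. Liver identity was present on all arrays, with between 19 and 21 of 21 measured liver secretory proteins at or above 6. Of 13 endothelial markers 9 read under 6 on all 4 arrays, and of 14 macrophage and myeloid markers 11 did. Of 14 fibroblast and pericyte markers 8 read under 6 on all arrays, as did 4 of 9 lymphocyte markers. These markers are human genes, and cells of the mouse host are not described by them.

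At least 2-fold beyond both F0 arrays lay 542 of the member genes, 310 above (1.57% of all genes) and 232 below (1.17%). At least 4-fold beyond both lay 62 above (0.314%) and 40 below (0.202%). The 2-fold shares of 1.57% and 1.17% are the base for the list counts given below. A list with 1 such gene describes that gene only. The median difference from the nearer F0 array was 0.34 over all members above and -0.34 over all members below, so most members were close to 1 of the F0 arrays. F0 (2) was the nearer array for 264 of the 310 genes and for 192 of the 232. For 8095 genes the F0 arrays lay within 2-fold of each other, and among these 126 were at least 2-fold above both (1.56%) and 110 below both (1.36%), with 35 (0.432%) and 19 (0.235%) at 4-fold. At the edge of the 2-fold limit, UBE3D lay just inside with 6.05 and 7.14 on F0 (1) and F0 (2) and 8.15 on F12, and ZFAS1 just outside with 11.59, 12.69 and 13.69. With a single F12 array the differences have no replicate check of their own. In limma, with the spread taken from the F0 pair alone, 0 of 19775 genes passed an adjusted p of 0.05. BEX1 ranked first. The fit gave every gene the same error, set by the wide gap between the F0 arrays. The p-values of this fit therefore do not measure the spread of single genes. The genes below are therefore described by their values.

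**Figure D1:**
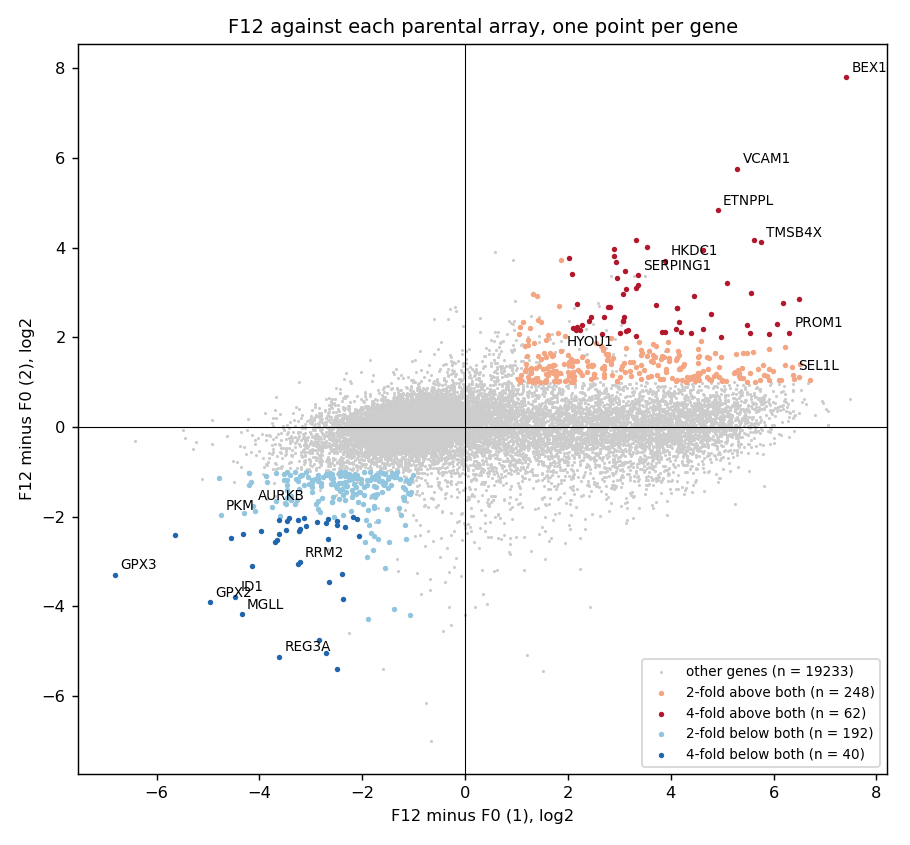
Difference of F12 from F0 (1) (horizontal axis, log2) and from F0 (2) (vertical axis, log2) for 19775 genes, 1 point per gene, coloured where F12 lay at least 2-fold or 4-fold beyond both with the level rule. The cloud is much wider along the F0 (1) axis, and the coloured genes are those in the upper right (310) and lower left (232) corners.

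The genes farthest above both parental arrays included an X-linked signalling adaptor, an adhesion molecule, an alcohol dehydrogenase and a complement inhibitor. BEX1, a brain-expressed X-linked gene whose small protein acts in growth factor signalling, read 4.58 on F0 (1), 4.19 on F0 (2), 6.59 on F6 and 11.99 on F12. Both F0 arrays were near background and F12 was among high signals, a difference of 7.41 from the nearer F0 array and the widest of all members. The promoter of BEX1 is shown because BEX1 led all members and the title of the series speaks of epigenetic alterations. These are the 250 bases before the RefSeq start, on the minus strand of GRCh38.p14 at chrX:103064172-103064421, with each CG dinucleotide, the site at which DNA is methylated, in capitals.
BEX1: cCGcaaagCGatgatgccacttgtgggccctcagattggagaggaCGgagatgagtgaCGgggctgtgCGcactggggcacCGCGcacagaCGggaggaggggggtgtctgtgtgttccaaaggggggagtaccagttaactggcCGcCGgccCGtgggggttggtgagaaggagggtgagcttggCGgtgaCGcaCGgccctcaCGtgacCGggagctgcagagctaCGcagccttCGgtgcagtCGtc
This stretch held 19 CG dinucleotides with a GC content of 65.6%, against a median of 11 CG dinucleotides over 35116 RefSeq promoters of that length and 17 over the promoters of the genes measured here. Methylation was not measured on these arrays.

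VCAM1, the vascular cell adhesion molecule that binds integrins of leukocytes, read 4.16 and 3.69 on the F0 arrays, 4.56 on F6 and 9.46 on F12, the order used throughout. F12 alone was above background, 5.30 above the nearer F0 array. The VCAM1 promoter is shown because that gene is a known target of the transcription factor NF-kB. It spans chr1:100719492-100719741 on the plus strand of GRCh38.p14, with GGGNTTNCC, a form of the NF-kB motif, and TATAAA, the TATA box, in capitals on either strand.
VCAM1: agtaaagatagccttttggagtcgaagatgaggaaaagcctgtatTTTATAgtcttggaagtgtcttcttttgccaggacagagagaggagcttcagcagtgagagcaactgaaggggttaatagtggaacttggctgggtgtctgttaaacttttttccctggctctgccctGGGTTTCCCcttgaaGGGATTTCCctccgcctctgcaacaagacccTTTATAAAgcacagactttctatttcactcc
GGGNTTNCC matched at -77 and -62 bases from the start, and at least 1 match was present in 4.7% of all promoters of this length. TATAAA matched at -205, -31 and -29, the last 2 on opposite strands and overlapping, and 10.7% of promoters held it. Of 22 NF-kB and cytokine genes measured, 2 (9.09%, VCAM1 included) lay above both F0 arrays at any size and level, against 19.5% of all genes. Below both lay 10 genes of this list (45.5%), against 30.4% of all genes. VCAM1 was the only one at least 2-fold above both F0 arrays, and ICAM1 (9.99, 10.43, 10.16 and 8.81) and the iron-chelate binding protein LCN2 (7.49, 7.40, 5.61 and 6.23) were at least 2-fold below both, LCN2 just short of it with quantile normalization. The list had a median of -0.24 against F0 (1) and -0.58 against F0 (2).

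ETNPPL, the lyase that degrades phosphoethanolamine, read 2.98, 3.06, 2.97 and 7.89. ADH1A, a liver alcohol dehydrogenase, read 3.14, 2.67, 2.51 and 6.68. Both stood above background on F12 only. SERPING1, the inhibitor of the first complement component, read 6.47 and 6.45 on the F0 arrays, 6.76 on F6 and 9.83 on F12, so its parental signals were close together and above the level of 6. HKDC1, a hexokinase-domain protein, read 6.07, 6.24, 6.85 and 9.95, and its 4 probesets all lay above their F0 means, although their average put F12 only 1.68 above the nearer F0 array in place of 3.71. TMSB4X, the actin monomer-binding peptide thymosin beta 4, read 7.56, 9.19, 13.17 and 13.31. It was the only gene of these 15 in which F6 was within 2-fold of F12. Genes with near-identical copies, TMSB4X among them, can share probes with those copies.

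The remaining genes of the 15 farthest above were ABCG5, ROBO2, FIBIN, TMEM17, CDH6, CFAP300, CTHRC1 and ATP6V0D2, between 2.97 and 3.32 above the nearer F0 array. ABCG5, the sterol export half-transporter of the canalicular membrane, read 4.27, 3.43, 5.30 and 7.59. ROBO2, a receptor for Slit guidance proteins, read 4.21, 6.09, 6.25 and 9.30. CTHRC1, a secreted collagen triple helix repeat protein, read 3.86, 6.42, 7.30 and 9.42. In these 3 genes F6 lay above both F0 arrays and below F12. ATP6V0D2, a subunit of the vacuolar proton pump, read 5.31, 5.41, 5.01 and 8.39, and CFAP300, a cilium assembly factor, read 2.98, 3.03, 2.65 and 6.12. In both of these F6 was slightly under both F0 arrays.

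The genes farthest below both parental arrays included a lipase, 2 glutathione peroxidases, an inhibitor of transcription factors and secreted proteins of epithelium. MGLL, the lipase that splits monoglycerides into glycerol and fatty acid, read 9.60 on F0 (1), 9.42 on F0 (2), 7.57 on F6 and 5.25 on F12. F6 was between the parental signals and F12, which was near background. GPX2, an epithelial glutathione peroxidase, read 11.80, 10.75, 11.28 and 6.84, a difference of -3.91 from the nearer F0 array that was -2.21 with the average of its 2 probesets. GPX3, the secreted glutathione peroxidase of plasma, read 11.96, 8.45, 11.19 and 5.15. In both peroxidases F6 lay between the F0 arrays and F12 alone was low. RBP2, which carries retinol in the cell, read 9.91, 9.70, 9.68 and 6.65, with F6 at the parental level.

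REG3A and REG1A are secreted lectins of the regenerating family, known from pancreas, gut and liver cancer. REG3A read 8.08, 9.59, 4.41 and 4.47, and REG1A read 7.44, 9.78, 4.21 and 4.73. LGALS14, a galectin of the placenta, read 6.70, 8.59, 4.32 and 3.85. In all 3 genes F6 was as low as F12, at background. The average of its probesets put REG3A -2.14 from the nearer F0 array in place of -3.62. SERPINA7, which encodes thyroxine-binding globulin, also read low on both resistant arrays (6.19 and 9.11 on F0 (1) and F0 (2), 4.07 on F6 and 3.70 on F12).

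SOCS3, a feedback inhibitor of cytokine signalling through STAT3, read 7.79, 6.66, 5.2 and 4.09, and LIF, a cytokine of the interleukin 6 family, read 8.12, 7.95, 6.19 and 5.45. Both were low on F6 and lower on F12. All 4 SOCS3 probesets lay under their F0 means, but with their average the difference of SOCS3 was -0.76 in place of -2.57. TFF1, a trefoil peptide of mucosa, read 8.0, 6.86, 6.08 and 4.34, PPP1R14C, an inhibitor of protein phosphatase 1, 7.13, 7.95, 5.18 and 4.49, and PRR15L 8.81, 7.78, 5.92 and 4.67. These 3 genes were at background on F12.

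Genes of DNA replication and nucleotide supply read lower on F12 than on F0 (2) in nearly all cases, and lower than on both F0 arrays in most. Of 36 measured, 9 (25.0%) were at least 2-fold below both and 0 above both. At any size and level 22 of the 36 (61.1%) were below both F0 arrays, against 30.4% of all genes. Against F0 (2) alone 35 of 36 (97.2%) read lower, while 45.9% of all genes did. Against F0 (1) alone 23 (63.9%) read lower, while 64.9% of all genes did. The shares of all genes include genes near background, whereas 35 of the 36 were at or above 6 on F12. Of the 9555 genes at or above 6 on F12, 4584 were at least 2-fold above F0 (1), so the 64.9% is not a like base. The median was -0.99 against F0 (1) and -0.82 against F0 (2). RRM2, the small subunit of ribonucleotide reductase, read 11.13, 10.92, 11.73 and 7.91, so that F6 was the highest array and F12 the lowest. Its difference from the nearer F0 array was -3.02, and -1.90 with the average of its probesets. GINS2, a subunit of the replicative helicase, read 9.91, 8.73, 9.46 and 7.02, UNG, the uracil-DNA glycosylase, 10.92, 10.74, 11.33 and 9.31, and CDC45, another helicase subunit, 9.14, 7.95, 8.49 and 6.72. With the average of probesets GINS2 was at -0.84, under the 2-fold limit. The other 5 of the 9 genes were CDT1, TK1, MCM2, MCM3 and ORC1, between -1.05 and -1.22 from the nearer F0 array, and TK1 (-0.95 with the average of probesets), CDT1 (-0.95 with quantile normalization) and ORC1 (-0.93 after centring) each fell short of 2-fold under 1 alternative.

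The RRM2 promoter is shown because RRM2 was farthest below among the replication genes. It spans chr2:10122489-10122738 on the plus strand of GRCh38.p14 and belongs to 1 of the starts RefSeq gives for the gene, with CCAAT, the motif bound by nuclear factor Y, in capitals.
RRM2: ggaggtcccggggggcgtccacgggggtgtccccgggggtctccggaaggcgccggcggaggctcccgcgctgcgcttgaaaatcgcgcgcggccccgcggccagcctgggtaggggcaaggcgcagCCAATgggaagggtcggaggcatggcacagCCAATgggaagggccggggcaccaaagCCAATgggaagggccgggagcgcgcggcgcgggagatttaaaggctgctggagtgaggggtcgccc
CCAAT matched at -123, -93 and -66 bases from the start. A match on either strand was present in 55.6% of 45 promoters of the replication list and in 32.0% of all promoters of this length. TTTCCCGC, a form of the E2F motif, was present in 20.0% of the replication promoters and in 1.39% of all promoters. The promoter of GINS2 held it, and those of RRM2, UNG and CDC45 did not. These are counts of letters in the windows and not of bound factors.

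Mitotic genes gave the same picture against F0 (2) but not against F0 (1). All 35 measured read lower on F12 than on F0 (2), by between 0.21 and 2.10. Against F0 (1), 19 of the 35 read higher, while 35.0% of all genes did. That share of all genes includes genes near background, whereas 33 of the 35 were at or above 6 on F12. Of the 9555 genes at or above 6 on F12, 4584 were at least 2-fold above F0 (1). The list lay at a median of 1.12 from F0 (1) and -1.18 from F0 (2). Of its genes 9 (25.7%) were at least 2-fold below both, with 0 above both. PTTG1, the securin that holds back the separation of sister chromatids, read 11.62, 11.76, 12.01 and 9.69, from a probeset marked as possibly cross-hybridizing. AURKB, a target of the inhibitor, read 11.40, 9.02, 10.61 and 7.27, and BIRC5, its partner in the chromosomal passenger complex, 11.15, 10.23, 10.74 and 8.56. KIF20A, the motor that moves this complex to the spindle midzone, read 8.33, 8.74, 9.22 and 6.65. F12 was the lowest array in all 4 of these genes. CCNB1, UBE2C, KIF2C, FOXM1 and ESPL1 were between -1.15 and -1.54 from the nearer F0 array, and CCNB1 was at -0.87 with the average of its probesets. AURKA, the other aurora kinase, read 7.92, 10.80, 10.45 and 9.85, between the F0 arrays. CCAAT was present in 81.8% of 33 promoters of the mitotic list, and TTTGAA, the core of the cell cycle homology region, in 51.5% against 13.3% of all promoters. The promoters of AURKB, KIF20A and PTTG1 held CCAAT but not TTTGAA. Among promoters of all genes at least 2-fold below both, 11.4% held TTTGAA and 41.2% CCAAT. Those of the measured genes held them in 10.9% and 32.4%. The motif content describes the list and not which members were lower on F12.

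Among 20 G1 regulators 3 (15%) were at least 2-fold below both F0 arrays, against 1.17% of all genes. These 3 act in opposite ways on the cell cycle. CDKN1A, the p21 inhibitor of cyclin-dependent kinases, read 9.63, 8.44, 7.71 and 6.84. CDKN2A, the p16 inhibitor, read 8.35, 7.35, 8.29 and 6.04, and the kinase CDK2 9.47, 9.12, 9.76 and 7.88. The average of probesets put CDKN2A at -0.72 and CDK2 at -0.75, under the 2-fold limit. The linker histone H1-4 (7.57, 6.16, 7.05 and 5.15) was the 1 of 14 histone genes at least 2-fold below both, though at -0.96 after centring and -0.85 with quantile normalization.

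**Figure D2:**
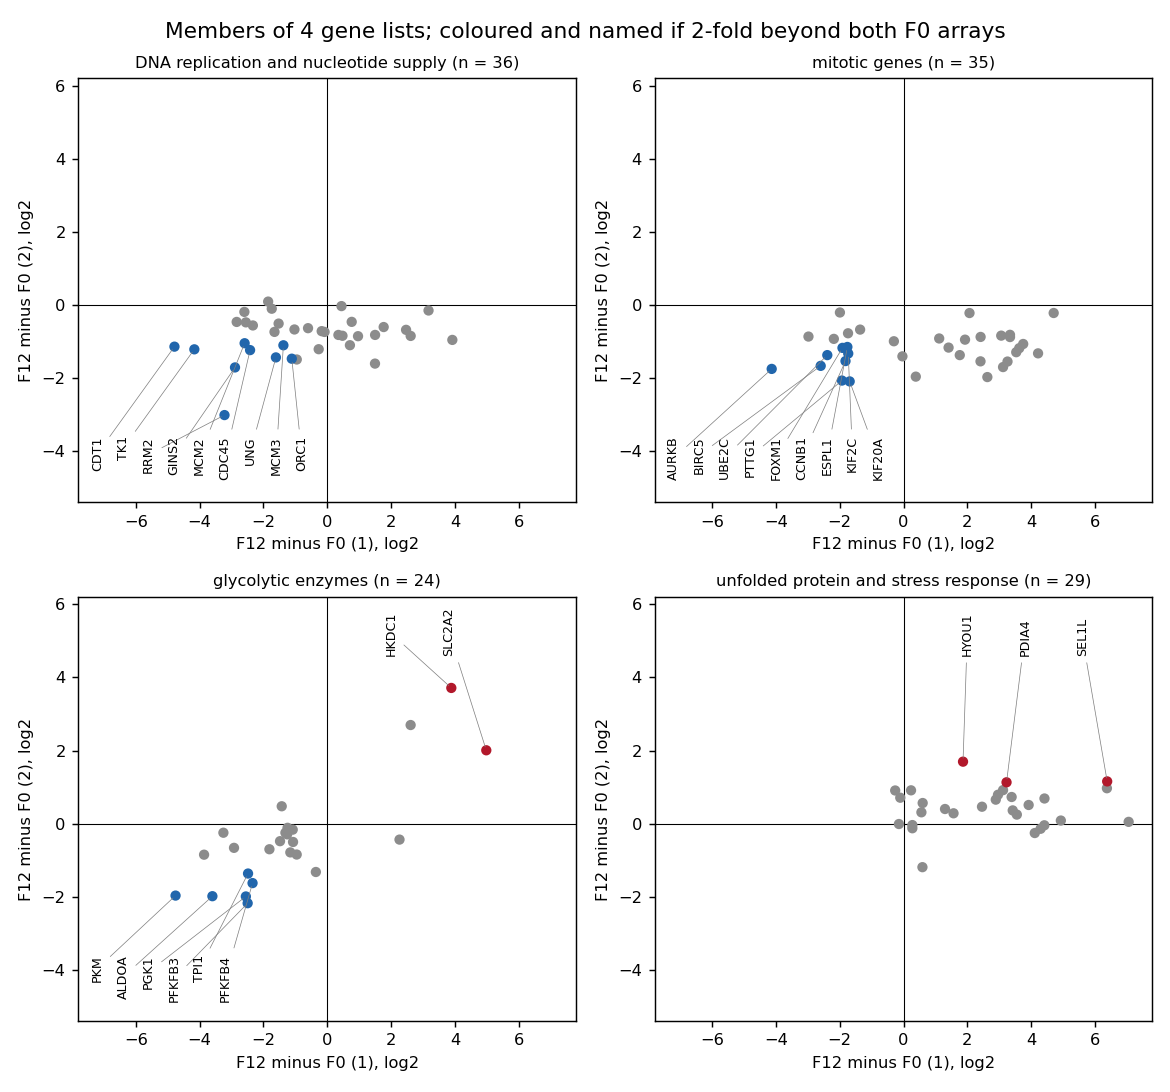
Difference of F12 from F0 (1) (horizontal axis, log2) and from F0 (2) (vertical axis, log2) for the measured members of 4 gene lists, with members at least 2-fold beyond both F0 arrays coloured and named. Replication genes (9 named) and genes of the glycolysis list (6 named below, 2 above) spread to the lower left. Mitotic genes lie under the horizontal line on both sides, and unfolded protein response genes lie mostly to the upper right.

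Genes of the glycolysis list read lower on F12 than on both parental arrays with few exceptions. Besides enzymes of glycolysis this list holds PFKFB regulators and the glucose transporter SLC2A2. Of 24 measured, 19 (79.2%) were below both F0 arrays at any size and level, against 30.4% of all genes, and 6 were at least 2-fold below both. The median was -1.37 against F0 (1) and -0.58 against F0 (2). PFKFB3 and PFKFB4, which make the activator of phosphofructokinase, read 8.99, 8.68, 6.96 and 6.5, and 10.02, 9.31, 8.43 and 7.68. In both, F6 also lay below the F0 arrays, and the average of probesets put PFKFB4 at -0.69. The aldolase ALDOA read 13.82, 12.21, 13.51 and 10.22, the phosphoglycerate kinase PGK1 12.70, 12.14, 12.48 and 10.15, the triose phosphate isomerase TPI1 13.74, 12.63, 13.47 and 11.26, and the pyruvate kinase PKM 10.97, 8.19, 9.78 and 6.22. In these 4 enzymes F6 lay between the F0 arrays and F12 was lowest. ALDOA was read only by probesets marked as possibly cross-hybridizing. The average of probesets put PKM at -1.12 from the nearer F0 array in place of -1.97. The 2 genes at least 2-fold above both were HKDC1, given above, and SLC2A2, the glucose transporter of hepatocytes, at 3.20, 6.18, 3.76 and 8.19. Among 20 hypoxia response genes outside glycolysis NDRG1 (11.91, 11.50, 10.52 and 10.29) and the lysyl oxidase LOX (8.75, 9.85, 8.98 and 7.28) were at least 2-fold below both, and with the average of its probesets LOX lay between the F0 arrays. The list of hypoxia genes had a median of 1.41 against F0 (1) but of -0.51 against F0 (2). Among 12 genes of gluconeogenesis and glycogen the phosphatase subunit PPP1R3B, which directs glycogen synthesis in liver, was at least 2-fold above both (4.80, 8.11, 5.45 and 9.24), and at 0.90 with the average of its probesets.

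Respiratory chain and ATP synthase genes included 3 of 27 at least 2-fold below both and 0 above, with medians of -0.93 against F0 (1) and -0.37 against F0 (2). ATP5MC1, a subunit of the ATP synthase ring, read 12.38, 10.77, 11.84 and 9.07. CYC1, cytochrome c1, read 13.06, 10.76, 12.65 and 9.76, and was just short of 2-fold after centring (-0.96) or quantile normalization (-0.98). NDUFA2, a subunit of complex I, read 11.20, 10.58, 10.61 and 9.08, and the average of its probesets put it at -0.51. Cytosolic ribosomal proteins, with 27 measured, included 0 at least 2-fold beyond both in either direction and had medians of 0.12 and 0.06.

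Among genes that report on signalling through the MAPK pathway a subset read lower on F12 than on both F0 arrays. Of 20 measured, 9 (45.0%) were below both at any size and level, against 30.4% of all genes, while 9 read above F0 (1). At least 2-fold below both were 6 (30%), against 1.17% of all genes, and 0 were as far above both. The medians of this list were -0.82 against F0 (1) and -1.22 against F0 (2). ETV4 and ETV5, transcription factors induced by ERK, read 10.41, 7.17, 10.15 and 4.77, and 8.09, 9.08, 9.75 and 6.18. DUSP5, a phosphatase that switches off ERK in the nucleus, read 9.92, 9.22, 10.65 and 7.74. SPRY4 and SPRY1, feedback inhibitors of growth factor receptors, read 6.35, 6.21, 6.87 and 4.91, and 9.22, 7.37, 8.87 and 6.08. F6 did not share the low values, being above both F0 arrays for ETV5, DUSP5 and SPRY4 and between them for ETV4 and SPRY1. With the average of probesets ETV5 was at -0.99, just short of 2-fold. PHLDA1 was 1 of the 2 members above both F0 arrays at any size, at 10.20, 9.80, 10.43 and 11.12.

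Upstream in the same pathway, 3 of 29 growth factor receptors and ligands (10.3%) were at least 2-fold below both F0 arrays, against 1.17% of all genes. As far above both were 0. All 3 belong to the fibroblast growth factor system. FGFR4, the main fibroblast growth factor receptor of hepatocytes, read 11.09 on F0 (1), 9.99 on F0 (2), 11 on F6 and 7.96 on F12. Its 4 probesets all lay under their F0 means, and their average gave a difference of -1.14 in place of -2.03. FGFR3 read 10.49, 10.36, 10.72 and 8.99. FGF19, the ligand of FGFR4, read 8.35, 8.70, 8.68 and 7.15. F12 was the lowest array in all 3 genes and F6 was at or near the parental signals. KLB, the coreceptor that FGF19 needs, did not share this, at 7.25, 10.17, 9.16 and 10.83. The receptors named as targets of the inhibitor were low throughout, as read by probesets for human genes. Any receptors on vessels of the mouse host are not described by these values. KDR read between 2.44 and 2.93 on the 4 arrays, FLT4 between 4.69 and 5.82, and FLT1 between 5.63 and 6.12. Their ligand VEGFA read 8.10, 11.27, 9.30 and 10.81, between the F0 arrays. In the insulin-like growth factor axis 1 of 17 genes, the receptor substrate IRS2, was at least 2-fold above both (6.01, 6.41, 6.13 and 7.63), and at 0.99 with quantile normalization.

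ID1 and ID3, which bind and inactivate helix-loop-helix transcription factors and are targets of bone morphogenetic protein signalling, were 2 of 27 genes of the BMP and TGF-beta list that lay at least 2-fold below both F0 arrays. ID1 read 13.73, 13.03, 13.24 and 9.25, and ID3 read 11.33, 9.55, 10.73 and 7.84. F6 lay between the F0 arrays in both. The ligand BMP2 was on the opposite side, at 6.88, 10.70, 9.65 and 11.83, and was the 1 gene of this list at least 2-fold above both. The list had medians of -0.05 against F0 (1) and -0.11 against F0 (2), and its sign against F0 (1) turned positive (between 0.08 and 0.23) with centring, quantile normalization or the average of probesets. Of 17 Wnt and beta-catenin target genes, TNFRSF19 alone was at least 2-fold beyond both, at 3.15, 6.55, 6.55 and 9.33, and 1.44 above the nearer F0 array in place of 2.78 with the average of its probesets.

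Genes of the unfolded protein response and the integrated stress response, which raise the folding capacity of the endoplasmic reticulum, read higher on F12. Of 29 measured, 20 (69.0%) were above both F0 arrays at any size and level, against 19.5% of all genes. All 29 were at or above 6 on F12, and of the 9555 genes at that level 3125 were above both. At least 2-fold above both were 3 (10.3%), against 1.57% of all genes, with 0 below. The median was 2.96 against F0 (1) and 0.46 against F0 (2), so the difference from F0 (2) was small for most. HYOU1, a chaperone of the endoplasmic reticulum, read 10.06, 10.23, 10.61 and 11.92. The disulfide isomerase PDIA4 read 9.41, 11.50, 11.18 and 12.63. SEL1L, which serves the degradation of misfolded proteins, read 4.88, 10.11, 7.18 and 11.26, and all 4 of its probesets lay above their F0 means. F12 was the highest array in all 3, and F0 (1) the lowest.

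The HYOU1 promoter is shown because HYOU1 lay farthest above both F0 arrays in this list and its parental signals were close. It spans chr11:119057206-119057455 on the minus strand of GRCh38.p14, with the second endoplasmic reticulum stress element (ERSE-II) in capitals.
HYOU1: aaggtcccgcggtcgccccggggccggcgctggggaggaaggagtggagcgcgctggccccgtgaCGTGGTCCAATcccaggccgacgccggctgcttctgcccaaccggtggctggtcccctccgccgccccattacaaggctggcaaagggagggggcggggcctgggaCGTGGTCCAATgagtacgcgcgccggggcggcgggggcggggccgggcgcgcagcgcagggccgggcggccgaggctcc
ERSE-II, searched on both strands, matched at -185 and -79 bases from the start. At least 1 match was present in 7.69% of 39 promoters of the list and in 0.0513% of all 35116 promoters. The first endoplasmic reticulum stress element (ERSE), in which CCAAT and CCACG stand a fixed distance apart, was present in 20.5% of the promoters of the list and in 0.074% of all promoters. The motif content describes the list and says nothing of which members were higher on F12.

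Adhesion molecules were among the lists with the largest share above both F0 arrays. Of 29 measured, 6 (20.7%) were at least 2-fold above both and 1, ICAM1, below both, with medians of 2.03 against F0 (1) and 0.22 against F0 (2). Besides VCAM1 these were CDH6, a cadherin known from kidney (4.81, 4.43, 4.79 and 7.91), and ICAM4, the adhesion molecule of red cells (5.13, 4.76, 7.69 and 8.09). ICAM2, which is common on endothelium, read 6.07, 4.72, 5.90 and 8.14. CDH2, N-cadherin, read 6.88, 9.31, 8.65 and 10.84, and ALCAM 4.77, 10.09, 8.27 and 11.17. F12 was the highest array in all of these. The average of probesets left 4 of the 6. It put ALCAM at 0.80 above the nearer F0 array, and CDH6 at 1.39 but with an F12 signal of 5.51, under the minimum level of 6, while ICAM2 stayed at 1.04. Of 13 endothelial markers 0 were at least 2-fold above both, and the summed linear signal of that list was 1267 on F0 (1), 442 on F0 (2), 815 on F6 and 463 on F12. In whole tissue, fewer cells of a type and less RNA per cell cannot be told apart. Cells of the mouse host, vessels included, are not described by these probesets for human genes. Among 26 epithelial and mesenchymal genes the tight junction protein OCLN was at least 2-fold above both (5.28, 10.13, 6.91 and 11.18) and S100A4 at least 2-fold below both (8.15, 6.17, 6.21 and 4.39).

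Of 18 progenitor and stem cell markers 4 (22.2%) were at least 2-fold above both, against 1.57% of all genes, and 0 below. PROM1, the surface protein CD133, read 5.51, 9.71, 8.96 and 11.82. SALL4, a transcription factor of fetal liver, read 7.28, 7.29, 9.28 and 8.57 and was the only gene of the 4 in which F6 exceeded F12. SOX2 read 4.29, 6.60, 5.84 and 8.11, and the aminopeptidase ANPEP 5.63, 5.95, 6.36 and 7.31. In SOX2 and ANPEP 3 of 4 and 2 of 3 probesets lay on the other side of their F0 means, and the average put them at 0.16 and 0.08. For SALL4 quantile normalization gave 0.57 in place of 1.27. The list had a median of 1.01 against F0 (1) and -0.04 against F0 (2), and that second sign turned with centring.

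BEX1 had company in its family on the X chromosome. Of 12 BEX and TCEAL genes 3 (25%) were at least 2-fold above both F0 arrays, against 1.57% of all genes, and 0 below. Above both at any size and level were 10 (83.3%), against 19.5% of all genes. On F12 9 of the 12 were at or above 6, and of the 9555 genes at that level 3125 were above both. BEX2 read 7.72, 9.15, 7.47 and 10.57, and BEX5 read 3.93, 4.64, 4.09 and 7.01. F12 was the highest array in both, and of the 3 genes BEX1 alone had F6 above both F0 arrays. BEX3 (12.09, 12.72, 12.36 and 12.78) and BEX4 (5.19, 7.35, 5.35 and 7.8) were above both by less than 2-fold. The list had medians of 2.73 against F0 (1) and 0.25 against F0 (2). The promoters of BEX2 and BEX5 held 11 and 10 CG dinucleotides in the 250 bases before the start, against 19 in that of BEX1.

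Genes of hepatocyte function lay on both sides of the F0 arrays. Liver secretory proteins had medians of 0.37 and 0.20, and of 21 measured 1 was at least 2-fold above both, the fibrinogen chain FGA (9.57, 9.67, 9.33 and 11.25, and 0.88 above the nearer F0 array with the average of its probesets), and 1 below, SERPINA7. ALB, albumin, read 10.18, 13.75, 12.41 and 13.58, and AFP, the fetal liver protein used as a liver cancer marker, 8.88, 13.73, 11.95 and 12.60, both between the F0 arrays on F12. All 16 hepatocyte transcription factors measured were at or above 6 on F12, as on F0 (2). On F0 (1) 10 of them were, and on F6 13. ONECUT2 was the 1 at least 2-fold above both (5.49, 8.38, 6.33 and 9.66), although the average of its probesets put it at 0.42.

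Of 23 genes of drug and bile acid metabolism, 3 (13%) were at least 2-fold above both, against 1.57% of all genes, and 1 below. The cytochromes CYP2B6 (5.77, 6.76, 9.05 and 9.48) and CYP3A5 (4.18, 6.44, 4.45 and 8.97) joined ADH1A above both, with F6 high for CYP2B6 only. CES1, the liver carboxylesterase, read 8.39, 9.01, 6.03 and 6.44. Among 18 drug and bile transporters ABCG5 and the organic cation exporter SLC47A1 (7.77, 8.13, 9.15 and 9.14) were at least 2-fold above both, and the bile acid exporter subunit SLC51A (7.36, 6.93, 6.75 and 4.97) below both. Of 31 complement and coagulation genes SERPING1 and the anticoagulant zymogen PROC (7.29, 6.42, 8.16 and 8.76) were above both, and SERPIND1, heparin cofactor II, below both (9.73 on F0 (2) and a slightly higher signal on F0 (1), 10.75 on F6 and 8.0 on F12). With quantile normalization PROC was at 0.78 and SLC47A1 at 0.79, under 2-fold.

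Glutathione peroxidases and NRF2 target genes included 3 of 24 at least 2-fold below both and 1 above. Besides GPX2 and GPX3 the quinone reductase NQO1 was below both (13.04, 11.95, 13.10 and 10.90), just short of 2-fold (-0.99) with the average of its probesets. GPX7, a peroxidase of the endoplasmic reticulum, was above both at 5.51, 5.58, 6.75 and 7.75. The members of 1 enzyme family thus lay on opposite sides. Of 8 metallothioneins MT1M was at least 2-fold above both (4.82, 2.97, 7.05 and 6.69), with F6 as high as F12. Of 23 genes of lipases and lipid storage 3 were below both and 0 above. These were MGLL, CES1 and the fatty acid-binding protein of liver FABP1 (12.26, 13.06, 11.14 and 10.56), and F6 was below both F0 arrays in all 3. Of 18 genes of fatty acid oxidation and ketogenesis the thiolase ACAA2 was above both, at 9.29, 10.26, 10.56 and 11.37, and at 0.99 with the average of its probesets. Of 21 cholesterol and fatty acid synthesis genes 0 were at least 2-fold beyond both, with medians of -0.70 and -0.25.

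Regenerating lectins and galectins had 4 of 13 members (30.8%) on the low side of both F0 arrays by at least 2-fold and 1 on the high side. The galectins lay on opposite sides. LGALS3, galectin-3, read 11.58, 10.99, 9.34 and 9.55, and LGALS1, galectin-1, read 8.0, 6.25, 10.42 and 10.01. In both, F6 and F12 were alike. The average of probesets put LGALS3 at -0.87 from the nearer F0 array, under 2-fold. Among amino acid transporters the neutral amino acid carrier SLC43A1 was above both (9.72, 10.26, 10.51 and 11.50), and the creatine transporter SLC6A8, placed in the same list, was below both (9.44, 9.79, 7.11 and 7.37). Of 20 immediate early and heat shock genes, which can respond to tissue handling, FOS (6.16, 6.47, 5.41 and 4.28) and IER3 (11.26, 10.31, 11.33 and 9.17) were below both and KLF6 above both (5.54, 8.83, 7.08 and 9.94), though at 0.79 with the average of its probesets. IFIT1 was the 1 of 26 interferon-stimulated and antigen presentation genes at least 2-fold beyond both (5.04, 4.87, 5.07 and 6.45). CD14 was the 1 of 14 macrophage and myeloid markers at least 2-fold below both (6.89, 6.22, 6.62 and 5.16), and at -0.89 with quantile normalization.

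Enzymes of DNA methylation were examined because the series title names epigenetic alterations. Of 18 measured, UHRF1, which brings the maintenance methyltransferase to newly replicated DNA, was the 1 gene at least 2-fold beyond both F0 arrays, at 10.22, 9.61, 10.23 and 8.16. DNMT1, the maintenance methyltransferase, read 8.44, 10.11, 9.69 and 10.09. DNMT3B read 8.26, 7.55, 8.56 and 7.59, and DNMT3A 8.13, 8.24, 8.0 and 8.53. On F12 DNMT1 and DNMT3B lay between the F0 arrays and DNMT3A lay 0.29 above the nearer. The demethylases TET1 (4.04, 7.18, 5.15 and 6.96) and TET2 (4.11, 6.86, 3.90 and 5.72) lay between the F0 arrays, and TET3 (3.69, 7.88, 6.52 and 8.04) just above both. Of 25 Polycomb and histone modifier genes 0 were at least 2-fold beyond both, and EZH2, the histone methyltransferase of Polycomb, read 5.26, 8.70, 7.09 and 8.67. Of 17 imprinted genes PHLDA2 was at least 2-fold below both (10.88, 9.67, 10.65 and 8.36), and -0.35 with the average of its probesets. BID, a death-promoting BCL2 family member, was the 1 of 20 cell death and survival genes beyond both by that much (10.83, 9.18, 9.69 and 7.85), and at -0.81 with the average of its probesets.

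Further genes at least 4-fold beyond both F0 arrays are named here after their values were seen. Several encode secreted or surface proteins. PROCR, the endothelial protein C receptor, read 5.23, 4.49, 5.77 and 8.18 on the arrays in the same order, and HABP2, a plasma protease made by liver, read 7.25, 6.69, 9.02 and 9.43. PCOLCE, an enhancer of procollagen processing, read 5.76, 4.83, 7.39 and 8.65. RELN, the extracellular matrix protein reelin, read 5.03, 8.80, 9.02 and 11.10. F6 lay above both F0 arrays in all 4. GHR, the growth hormone receptor, read 3.12, 4.93, 3.59 and 7.27. OTC, a urea cycle enzyme of liver, read 4.10, 3.99, 4.85 and 6.19, and OXCT1, which lets cells burn ketone bodies and is scarce in normal liver, 4.96, 6.65, 6.04 and 8.78. The transcription factors POU3F2 (3.81, 3.86, 3.95 and 6.22), NR2E1 (3.89, 4.54, 3.89 and 6.99) and MEIS1 (3.38, 5.66, 5.97 and 7.77) were above 6 on F12 only.

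Below both by at least 4-fold, CEBPD, a transcription factor of the acute phase response, read 11.35, 10.78, 9.72 and 8.64. The protease inhibitors PI3 and SLPI, both secreted by epithelia, read 9.31, 7.23, 6.08 and 4.76, and 7.79, 7.62, 6.76 and 5.61. In these 3 genes F6 lay between the parental signals and F12. SHC1, an adaptor that links receptors to RAS, read 12.41, 12.31, 12.41 and 10.08, and MIF, a cytokine, 13.31, 12.68, 13.32 and 10.64. For both, F6 was at the parental level and F12 was 4-fold lower from a high signal. The cell division gene CDCA3 read 10.39, 9.45, 10.29 and 7.17, the nuclear protein PIMREG, which is high in dividing cells, 10.05, 8.38, 9.54 and 6.08, and the linker histone H1-1 10.93, 8.99, 10.01 and 6.61.

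Agreement between probesets differed by direction. Of the 310 genes at least 2-fold above both F0 arrays, 197 had all usable probesets on the same side of their F0 means, as did 218 of the 232 below. Several probesets were present for 211 and 119 of these genes. NRG1, a ligand of the ERBB receptors, read 3.86, 5.31, 6.72 and 9.47, but only 2 of its 5 probesets lay above, and SOCS2, which restrains growth hormone signalling, read 4.61, 5.29, 5.50 and 9.24 with 2 of 3 above. Both F0 arrays were under 6 for 118 of the 310 genes above, and F12 was under 6 for 61 of the 232 genes below, so the differences of these genes are bounds. Among 11721 probesets without a gene symbol, 6 lay at least 4-fold above both F0 arrays (0.0512%) and 6 below (0.0512%).

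The F6 array shares the F0 arrays with F12, and its values are given beside those of F12 for this reason without a measure of agreement. F6 had 108 genes at least 2-fold above both F0 arrays (0.546%) and 81 below (0.41%), with 11 (0.0556%) and 12 (0.0607%) at 4-fold. Of the 310 genes above in F12, F6 lay above both F0 arrays for 83, between them for 171 and below both for 56, and for 19 it was itself at least 2-fold above. Of the 232 genes below in F12, F6 lay below both for 76, between them for 120 and above both for 36, and for 32 it was itself at least 2-fold below. Genes 2-fold beyond both in opposite directions on F6 and F12 numbered 0.

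The 2-fold genes were spread unevenly over the chromosomes. On chromosome 17, 3 of 1126 genes (0.266%) were above both F0 arrays and 30 (2.66%) below, and on chromosome 22, 2 of 460 (0.435%) above and 14 (3.04%) below. On chromosome 7, 13 of 932 (1.39%) were above and 1 (0.107%) below, on chromosome 13, 10 of 401 (2.49%) above and 0 below, and on chromosome 14, 19 of 611 (3.11%) above and 5 (0.818%) below. Chromosomes 5 (1.35% above and 2.59% below) and 18 (2.97% above and 0.66% below) also stood away from the shares of all genes. The difference between the F0 arrays moved with some of these. The median of F12 minus F0 (1) was -0.84 on chromosome 17, -1.05 on chromosome 22, -1.04 on chromosome 19 and -0.92 on chromosome 16, against -0.28 on chromosome 5 and -0.06 on chromosome 18. Its part in the counts was not tested. Against F0 (2) the chromosome medians of chromosomes 1 to 22 and X lay between -0.07 and 0.10. Chromosomes were taken from the RefSeq gene table of GRCh38.p14, and gene copy number was not measured.

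**Figure D3:**
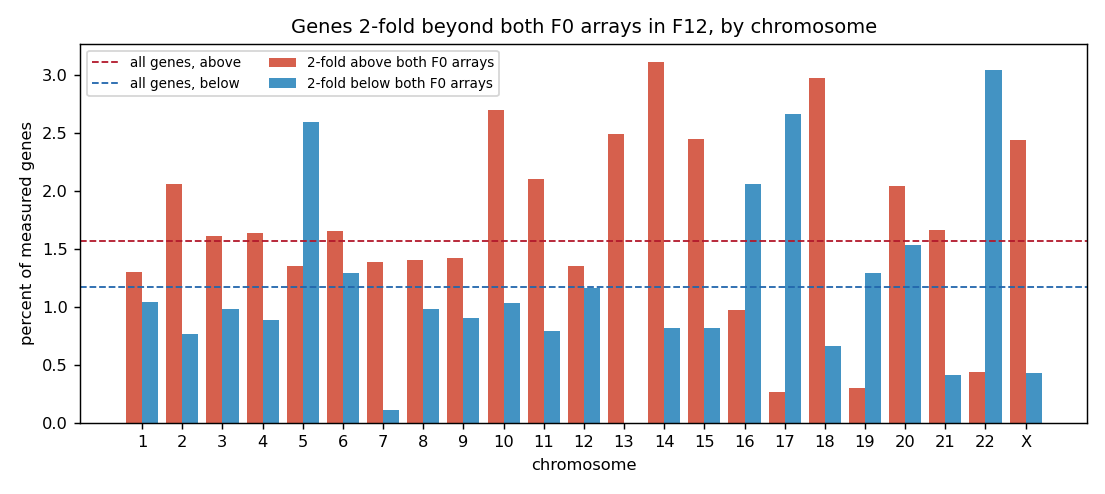
Percent of the measured genes of each chromosome that lay at least 2-fold above (red) or below (blue) both F0 arrays on F12, with dashed lines at the shares of all genes (1.57% and 1.17%). Chromosomes 5, 16, 17, 19 and 22 have more genes below than above, and the other chromosomes shown more above than below.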

How the data were processed

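Expression was measured on 4 single-colour arrays. The authors' deposited values are log2 signals per probeset, made with RMA in the affy package per the submitters' processing notes. RMA gives every array nearly the same distribution of probe signals, also where arrays are as unlike as the F0 pair. Such values carry no count, and precision is limited by how few arrays there are. Of 54613 probesets 41091 had 1 gene symbol in the platform annotation, 1801 several and 11721 none, and 41037 matched the RefSeq gene table. For each of 19775 genes the brightest probeset on average was used, and one marked as possibly cross-hybridizing only where a gene had no other (419 genes). Promoter sequences are RefSeq's, of GRCh38.p14. Named genes were the 15 farthest above and the 15 farthest below with all probesets on 1 side, up to 4 members of each list each way at least 2-fold beyond both F0 arrays, and 15 fixed genes. Further members of a list's count and further 4-fold genes were named after their values were seen. The comparison, the 46 gene lists (1030 entries) and this rule were chosen with earlier results of these data known. Limma 3.58.1 in R 4.3.3 (lmFit, eBayes, Benjamini-Hochberg) was fitted to F0, F6 and F12 as 3 groups and tested on simulated data. The F0 pair alone sets its error, and that spread may be technical. Alternatives changed the probeset summary, the scaling, the level and the F0 array. A planned comparison of protein sequences was not made, since proteins were not used here.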

Additional observations from a re-analysis of the deposited data

Results flagged for a closer look

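For 20 named genes the F6 array lay on the opposite side of both F0 arrays from F12. The difference between F6 and F12 was not tested, and with 1 array each it has no replicate check. For genes above both F0 arrays in F12, F6 lay below both by -1.07 for FIBIN, -0.33 for CFAP300, -0.30 for ATP6V0D2, -0.26 for BEX2, -0.24 for FGA, -0.16 for ADH1A and -0.0097 for ETNPPL, where the signals of FIBIN, CFAP300, ATP6V0D2, ADH1A and ETNPPL were under 6 on F6 and on both F0 arrays. For genes below both F0 arrays in F12, F6 lay above both, by 0.76 for the clotting inhibitor SERPIND1, 0.73 for DUSP5, 0.67 for ETV5, 0.60 for RRM2 and 0.51 for SPRY4. The same held by 0.48 for KIF20A, 0.42 for UNG, 0.29 for CDK2, 0.25 for PTTG1 and 0.23 for FGFR3. The differences were smaller for IER3 at 0.073, NQO1 at 0.060 and UHRF1 at 0.0053.

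Signal was also present in probesets that the platform annotation leaves without a gene symbol. Of 11721 such probesets, 6 lay at least 4-fold above both F0 arrays in F12 (0.0512%) and 6 at least 4-fold below (0.0512%). The farthest above read 2.89 on F0 (1), 2.89 on F0 (2), 4.17 on F6 and 6.91 on F12. The 2 farthest below read 7.37, 7.35, 3.88 and 3.35, and 7.04, 7.43, 3.76 and 3.10, with F6 as near background as F12 in both.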

How the results depend on the processing

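The counts of genes beyond both F0 arrays kept within 1.5 times of their values when the arrays were centred or quantile-normalized and when the minimum level was 5 or 7. The average of all usable probesets in place of 1 probeset gave 173 genes at least 2-fold above both in place of 310, of which 155 were shared, and 37 at least 4-fold above in place of 62. With that average BEX1 came under the adjusted p limit in limma, which it did not otherwise. BEX1 has 1 probeset, so its own values were unchanged by the average. The error that limma shares over genes was smaller, with a median standard error of 1.44 in place of 1.74. With a mean-variance trend ENPP6 and not BEX1 came first. The choice of F0 array mattered most. Leaving out 1 F0 array gave from 438 (without F0 (1)) to 4584 (without F0 (2)) genes at least 2-fold above and from 662 to 4091 below, and at 4-fold from 95 to 3629 above and from 138 to 1181 below. No limma fit without 1 F0 array was run, since it leaves no residual degrees of freedom. Of 520 alternative values of the 104 named genes 2-fold beyond both, 364 moved by less than the spread of the F0 pair, 156 by more, 1 (LOX) went to 0 and 0 changed sign. Part of this tally was fixed in advance. Leaving out the farther F0 array cannot move the difference, and leaving out the nearer moves it by the whole F0 difference. Neither can change its sign, and the average cannot move a gene with 1 probeset. At least 2-fold beyond both remained 86 of the 104 with the average of probesets, 102 after centring and 96 after quantile normalization. Among gene lists, the average of probesets left 1 of 3 G1 regulators and 2 of 4 progenitor markers 2-fold beyond both, and quantile normalization gave 5 stress response genes in place of 3. No paired analysis was possible because F6 and F12 carry no replicate number.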
